A study of Mus musculus with 4 samples.

Results

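Long intergenic noncoding RNAs (lincRNAs) are transcripts that lie between protein-coding genes and hold no recognised coding frame. In embryonic mouse lung, 68 rows typed as such were counted deeply enough to be described lung by lung, although RefSeq now types 9 of them protein-coding and 2 as pseudogenes, against 43 as long noncoding RNA and 14 with no match. The rows were chosen by their counts in these same libraries, as rows typed lincRNA in the deposited table with a mean of at least 250 reads over the 4 lungs, leaving out H19 and every gene on chromosomes X and Y. Of 45706 rows, 3397 were typed lincRNA, 746 of those averaged at least 5 reads and 73 averaged at least 250. H19 and 4 genes on chromosome X were then set aside. The mean level of each RNA was therefore used to pick it and is only described, whereas the difference between genotypes was not in the rule and was tested. The mutant libraries were deeper, however, and 13 of the 68 averaged fewer than 250 reads in wild-type lungs and none in mutant lungs. A difference was thus partly built into the choice of some RNAs. 3 values lay just inside the limit, with mean counts of 253.5 for Gm26724, 253.5 for Gm2115 and 267.25 for C920006O11Rik (which shared that value with 1190002F15Rik), and just outside were Irx3os at 246.5, 4632428C04Rik at 240.75 and Gm37233 at 237.5.

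Noncoding transcripts of this kind work in several ways. Some, such as Malat1 and Neat1, stay in the nucleus and shape splicing or nuclear bodies. Others are spliced only to free a microRNA (miRNA) or a small nucleolar RNA (snoRNA) from an intron or exon, and others start beside a developmental transcription factor gene and are read from the opposite strand. In the lung, Fendrr is known as a mesenchymal transcript that shares a promoter region with Foxf1, and Neat1 and Malat1 are among the commonest noncoding RNAs of most tissues.

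The left lung lobe of C57BL/6 embryos was taken at embryonic day 17, when the distal airspaces widen into sacs. 2 wild-type lungs (Myh10+/+) were compared with 2 lungs homozygous for an ENU-induced missense change in Myh10, labelled Myh10L458R/L458R and written Myh10-/- below. Myh10 encodes the heavy chain of non-muscle myosin II-B. Every cell of the embryo carries the changed allele, so the lung is not altered alone. The homozygotes die soon after birth. Nothing in the labels ties the lungs to litters, so p-values measure the spread between these samples.

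The lungs held 23156026 and 19116971 assigned reads in Myh10+/+ and 27573824 and 32055306 in Myh10-/-. Among 18763 genes with a mean of at least 5 reads, edgeR's quasi-likelihood test called 252 lower and 56 higher in Myh10-/- at an adjusted p under 0.05, a split that became 233 lower and 111 higher when libraries were scaled by their totals. Myh10 itself was not called (log2 fold change 0.06, adjusted p = 0.662), although both Myh10-/- lungs were higher. It was at 505 and 504 CPM (reads per 1000000 assigned reads, with TMM scaling) in Myh10+/+ and 539 and 513 CPM in Myh10-/-. A missense change need not alter the transcript level. Xist was at 3914 CPM in the first Myh10+/+ lung and 4455 CPM in the second Myh10-/- lung and below 5 CPM in the others, so each genotype held 1 lung of each sex pattern. Lung markers were present in every lung, with Nkx2-1 between 434 and 455 CPM and Tbx4 between 213 and 225 CPM. Of 5 lung epithelium markers, Sftpb and Cdh1 were called lower (log2 fold changes of -0.48 and -0.30) and Sftpc had -0.41 without passing. Epcam had -0.04 and Nkx2-1 0.02. Of 5 mesenchyme markers none was called by edgeR or DESeq2, while 2 were lower at an unadjusted p under 0.05 (Foxf1 at -0.18 and Tcf21 at -0.14). The others were Pdgfra at 0.08, Tbx4 at 0.02 and Col1a1 at -0.04. Of 4 thymus markers, only Rag1 had enough reads to be tested, at 0.131 to 0.28 CPM. The 4 markers of alveolar type 1 cells were all called lower (summed 1112 and 1097 CPM in Myh10+/+, 684 and 849 CPM in Myh10-/-), 2 of them also by DESeq2, and 4 of 4 tested heart muscle markers by both tools (147 and 182 against 111 and 103 CPM). The 3 cycling markers summed to 1097 and 1045 against 1336 and 1206 CPM, with none called by edgeR and 1 called higher by DESeq2. In whole lobes, fewer cells of a type and less RNA per cell cannot be told apart, and the part of these markers in the values below was not tested.

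The 68 RNAs took 0.471% and 0.479% of the assigned reads of Myh10+/+ lungs, against 0.533% and 0.483% of those of Myh10-/- lungs. Both Myh10-/- lungs thus lay above both Myh10+/+ lungs, but the second only by a narrow margin. The mean was 0.475% ± 0.00557 (SD, n = 2) against 0.508% ± 0.0357 (SD, n = 2), and the difference of 0.0332 percentage points was 0.00796 without the first Myh10-/- lung. An exact two-sided permutation test of 2 against 2 cannot fall below p = 0.333. Without Malat1, which alone took 0.120% and 0.114% against 0.152% and 0.113%, the other 67 took 0.351% and 0.365% against 0.382% and 0.370%. The 5 most counted RNAs held most of these reads, at 0.308% and 0.309% of all reads in Myh10+/+ and 0.352% and 0.306% in Myh10-/-. The remaining 63 shared 0.163% and 0.170% in Myh10+/+ and 0.181% and 0.177% in Myh10-/-. The median RNA of the list had a mean of 544.5 reads.

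The most counted RNA was Malat1, a nuclear transcript of speckles, with 1 merged exon block at chr19:5795690-5802672 on the minus strand (GRCm38). It stood at 1213 and 1140 CPM in Myh10+/+ and at 1502 and 1126 CPM in Myh10-/-. The first Myh10-/- lung was the highest and the second the lowest, so the genotypes overlapped, with a log2 fold change of 0.16 (SE 0.12, adjusted p = 0.563). Without the second Myh10-/- lung it was 0.35 with an adjusted p of 0.000297, and without the first it was -0.061. Meg3, the maternally expressed transcript of the Dlk1-Dio3 imprinted cluster, stood at 951 and 985 CPM against 1023 and 959 CPM, again with overlap (log2 fold change 0.03, SE 0.08). The conserved RNA 1700020I14Rik, named Oip5os1 or Cyrano elsewhere and known for pairing with miR-7, was at 406 and 379 CPM in Myh10+/+ and 426 and 418 CPM in Myh10-/-. Its lungs did not overlap, but the difference was small and did not pass (log2 fold change 0.10, SE 0.05, adjusted p = 0.361).

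Neat1, the scaffold RNA of paraspeckles, lies beside Malat1 at chr19:5824708-5845478. It was at 260 and 303 CPM in Myh10+/+ and 232 and 262 CPM in Myh10-/-. The second Myh10-/- lung passed the first Myh10+/+ lung, and the log2 fold change of -0.19 (SE 0.07) had an adjusted p of 0.219, which passed without the second Myh10-/- lung (-0.28, adjusted p = 0.00469). It was -0.075 without the second Myh10+/+ lung (adjusted p = 0.841) and -0.10 without the first Myh10-/- lung (adjusted p = 0.583). Paraspeckle proteins were given from a fixed list of 5 genes, of which edgeR and DESeq2 called none. Sfpq, with the only unadjusted p under 0.05 among them, was at 543 and 502 CPM in Myh10+/+ against 629 and 567 CPM in Myh10-/- (log2 fold change 0.20, adjusted p = 0.196), and Nono was at 334 and 327 against 369 and 339 CPM. The 5 proteins had fold changes above 0, from 0.04 for Pspc1 to 0.20, while that of Neat1 was below 0, and the difference between RNA and proteins was not tested. Of 12 tested genes on a list of nuclear and conserved noncoding RNAs, 5 of them among the 68, edgeR and DESeq2 called none, with 1 at an unadjusted p under 0.05 (Neat1).

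**Figure D1:**
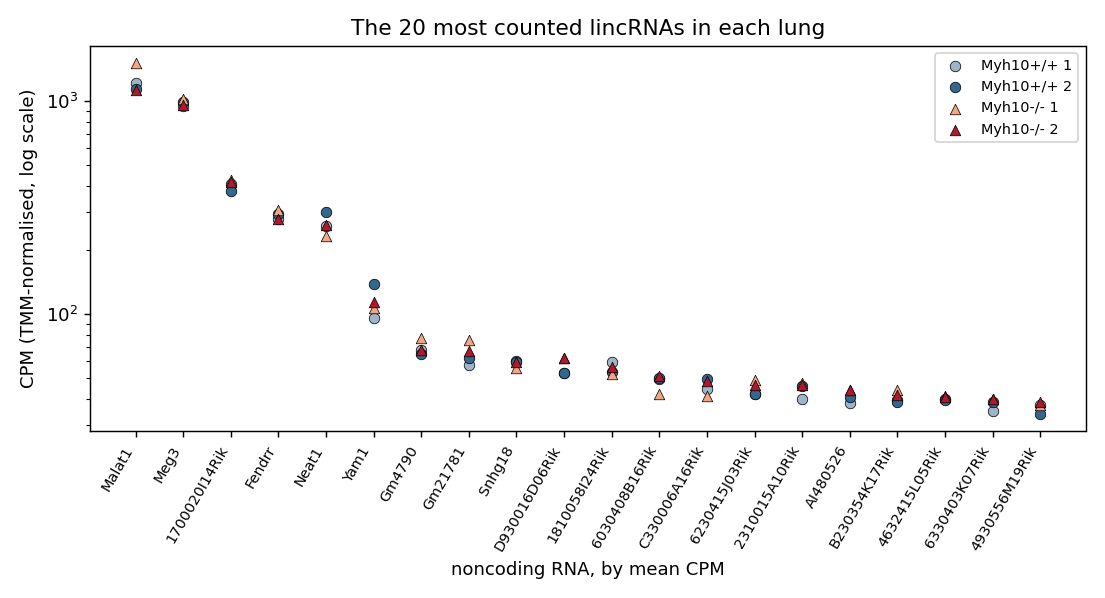
TMM-normalised CPM (log scale) of the 20 most counted lincRNAs in each lung, circles for Myh10+/+ and triangles for Myh10-/-. CPM is not divided by length here, and the counts chose the RNAs. Malat1 reaches 1502 CPM in the first Myh10-/- lung, whereas D930016D06Rik shows both Myh10-/- lungs above both Myh10+/+ lungs.

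Divided by annotated exon length, the order changed. Malat1 led with 178 CPM per kilobase, followed by Fendrr with 87.7, Yam1 with 62.0, Meg3 with 54.1 and 1700020I14Rik with 49.0 CPM per kilobase, whereas the median over the 64 RNAs with an annotated length was 7.52. Hosts of snoRNAs were spread over this scale. Snhg18 had 39.6 CPM per kilobase, Epb4.1l4aos 31.6 and Snhg6 28.9. Lower were 2900076A07Rik with 9.50, Snhg12 with 9.05 and Snhg20 with 6.70. These are averages over 4 lungs and all annotated exons, some of which may not be used in lung.

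Across genotypes, 3 of the 68 RNAs passed the test and all 3 rose in Myh10-/-: Gm2115, Gm1976 and Gm17275. Over all tested genes the percentages called were 0.298 higher and 1.34 lower. edgeR called no RNA of the 68 lower. At an unadjusted p under 0.05, 2 were lower (Gm32200 and Neat1) and 17 were higher. Of all 18763 tested genes, 1693 were lower and 1411 higher by that measure, the background for such counts in other groups too. DESeq2's Wald test also called none of the 68 lower and 2 higher. Of the 3, Gm2115 reached the count limit only through its deeper Myh10-/- libraries, with 164 and 154 reads in Myh10+/+ and 348 in each Myh10-/- lung, so that a difference was partly built into its choice.

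Gm2115 is an RNA of 4 exon blocks at chr7:84528954-84583531 on the plus strand, typed lincRNA in the table but protein-coding in GENCODE M21 and in RefSeq. It stood at 7.16 and 8.08 CPM in Myh10+/+ and at 12.5 and 10.8 CPM in Myh10-/-. No lung of 1 genotype reached those of the other, and the log2 fold change was 0.61 (SE 0.12, adjusted p = 0.0301). Without the first Myh10+/+ lung the log2 fold change was 0.52 and the adjusted p 0.109. Its nearest protein-coding gene Fah, the last enzyme of tyrosine breakdown, had a log2 fold change of 0.01 (adjusted p = 0.962).

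Gm1976 lies at chr17:94759944-94834799 on the minus strand and is a processed transcript in GENCODE M21. It was at 12.5 and 12.0 CPM in Myh10+/+ and 17.5 and 16.1 CPM in Myh10-/-. The pairs of lungs were tight and well apart, with a log2 fold change of 0.45 (SE 0.09, adjusted p = 0.0320). This call was lost when either Myh10+/+ lung or the first Myh10-/- lung was left out (adjusted p of 0.0638, 0.126 and 0.106), and DESeq2's Wald test did not make it (adjusted p = 0.0714). The nearest coding gene Mettl4, a methyltransferase, had a log2 fold change of 0.25 (SE 0.11, adjusted p = 0.269).

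Gm17275, at chr1:180802568-180809483 on the plus strand, was at 18.9 and 20.6 CPM in Myh10+/+ and 30.3 and 24.6 CPM in Myh10-/-. Its Myh10-/- lungs differed from each other by more than its Myh10+/+ lungs, yet both were higher, with a log2 fold change of 0.48 (SE 0.10, adjusted p = 0.0369). Without the first Myh10-/- lung the value was 0.32 with an adjusted p of 0.207, and without the first Myh10+/+ lung 0.41 with an adjusted p of 0.0582. Of its 75-base windows, 23.0% also occur on the opposite strand in transcripts of other genes, and its exons overlap H3f3a, a gene for histone H3.3, by 638 bases. H3f3a had a log2 fold change of 0.14 (SE 0.06, adjusted p = 0.302), and whether counting used strand is not given in the sources used here.

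**Figure D2:**
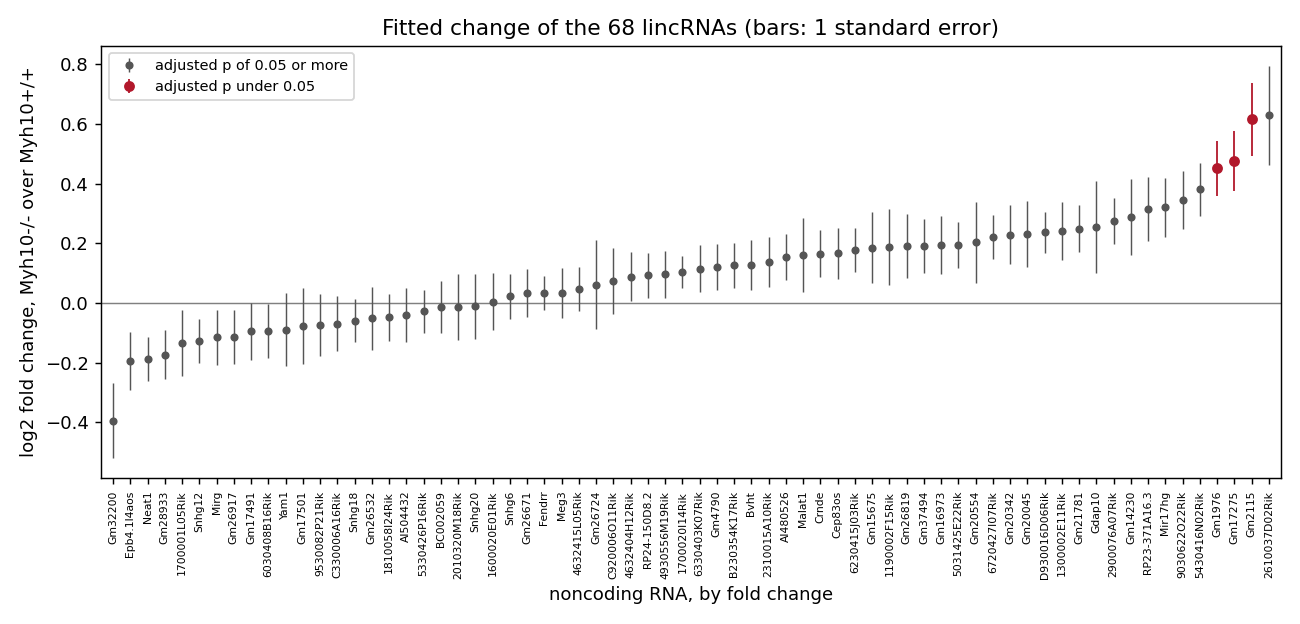
Fitted log2 fold change (Myh10-/- over Myh10+/+) of all 68 lincRNAs in rising order, with bars of 1 standard error. The 3 RNAs with an adjusted p under 0.05 are red and lie above 0, and most of the others sit to the right of the point where the values cross 0.

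The RefSeq promoter windows of the 2 called RNAs that have one, and of Meg3 and Fendrr as the best known members, are printed to show how unlike they are. Each covers 250 bases before and 50 bases after the annotated start in GRCm38.p6, 5′ to 3′ on the gene's strand. Capitals mark the letters TATAAA or, on the other strand, TTTATA, likewise CCAAT or on the other strand ATTGG, as well as CACGTG, which reads alike on both, with overlapping matches kept.
Gm2115 (chr7:84528724-84529023, plus): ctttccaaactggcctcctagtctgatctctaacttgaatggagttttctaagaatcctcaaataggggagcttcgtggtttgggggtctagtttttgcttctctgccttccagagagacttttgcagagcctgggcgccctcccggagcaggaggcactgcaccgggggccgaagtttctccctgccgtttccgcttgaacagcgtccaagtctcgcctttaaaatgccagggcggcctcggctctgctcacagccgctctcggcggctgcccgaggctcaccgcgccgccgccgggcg
Gm1976 (chr17:94834750-94835049, minus): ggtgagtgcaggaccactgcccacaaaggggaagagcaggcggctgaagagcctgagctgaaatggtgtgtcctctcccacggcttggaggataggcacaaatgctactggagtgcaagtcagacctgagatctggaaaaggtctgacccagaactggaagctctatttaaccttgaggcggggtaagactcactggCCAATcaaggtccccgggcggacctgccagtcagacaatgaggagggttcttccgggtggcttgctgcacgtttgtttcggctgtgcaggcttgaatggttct
Meg3 (chr12:109540746-109541045, plus): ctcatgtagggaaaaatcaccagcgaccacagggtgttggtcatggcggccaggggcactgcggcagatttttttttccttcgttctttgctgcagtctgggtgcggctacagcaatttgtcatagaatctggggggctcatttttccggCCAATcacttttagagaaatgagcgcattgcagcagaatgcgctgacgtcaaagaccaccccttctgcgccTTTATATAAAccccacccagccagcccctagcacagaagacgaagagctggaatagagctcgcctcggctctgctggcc
Fendrr (chr8:121083061-121083360, minus): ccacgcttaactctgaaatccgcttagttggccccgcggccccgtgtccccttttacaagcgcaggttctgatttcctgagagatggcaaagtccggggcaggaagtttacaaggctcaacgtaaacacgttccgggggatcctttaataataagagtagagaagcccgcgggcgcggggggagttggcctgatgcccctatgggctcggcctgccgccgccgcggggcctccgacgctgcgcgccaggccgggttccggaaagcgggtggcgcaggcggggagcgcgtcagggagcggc
The Meg3 window holds CCAAT with its first base at -100 and TTTATA, which overlaps the TATAAA, from -29 and -25, counted from the RefSeq start. Gm1976 holds CCAAT at -53, and none of these letters occur in the other windows. CG dinucleotides numbered 31 in Fendrr, 21 in Gm2115, 13 in Meg3 and 8 in Gm1976.

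RefSeq gave a promoter window for 44 of the 68 RNAs, from 42 genes. In the first window listed for each gene, TATAAA or its reverse complement was found in 4 of 42 (9.52%), against 14.2% of 27025 genes of all kinds. CCAAT or its reverse complement was in 17 of 42 (40.5%) against 37.9%, and CACGTG, which reads the same on both strands, in 3 of 42 (7.14%) against 7.24%. The median number of CG dinucleotides was 16.5 against 7.

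Without overlap between genotypes, 31 of the 68 RNAs were higher in both Myh10-/- lungs (45.6%) and 5 were lower (7.35%). Over all tested genes the percentages without overlap were 23.9 higher and 24.3 lower. Behind the called RNAs, 2610037D02Rik, next to the chromatin gene Arid2, had the largest fitted increase, at 13.9 and 9.97 CPM in Myh10+/+ and 22.0 and 15.5 CPM in Myh10-/-. Its wide spread within each genotype gave a log2 fold change of 0.63 with SE 0.17 (adjusted p = 0.0848). The call passed without the first Myh10+/+ lung and without the second Myh10-/- lung (log2 fold changes of 0.90 and 0.87). Without the second Myh10+/+ lung the value was 0.42 (adjusted p = 0.251), without the first Myh10-/- lung 0.36 (adjusted p = 0.247), and DESeq2 gave an adjusted p of 0.373.

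5430416N02Rik was more even, at 12.0 and 11.8 CPM in Myh10+/+ and 15.8 and 15.2 CPM in Myh10-/-. Its log2 fold change of 0.38 (SE 0.09) narrowly missed the threshold, with an adjusted p of 0.0581, and passed it when libraries were scaled by their totals (adjusted p = 0.0438) or without the second Myh10-/- lung (0.41, adjusted p = 0.0234). Without any other lung the adjusted p was 0.161 to 0.231, and with DESeq2 0.175.

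On the other side, Gm32200, a lincRNA at chr1:191436340-191465048, had the largest fitted decrease. It was at 20.2 and 20.6 CPM in Myh10+/+ and at 12.9 and 18.0 CPM in Myh10-/-. The first Myh10-/- lung set most of this, and the log2 fold change of -0.40 (SE 0.13) had an adjusted p of 0.143. Without the second Myh10-/- lung it was -0.66 with an adjusted p of 7.53e-05, and without the first -0.18 with an adjusted p of 0.608. Gm28933, for which no position was found, was at 32.5 and 37.3 against 31.2 and 30.7 CPM. These values, with those of 3 snoRNA hosts described below, make up the 5 RNAs whose Myh10-/- lungs were both lower, and edgeR and DESeq2 called none of them, with 1 at an unadjusted p under 0.05 (Gm32200).

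**Figure D3:**
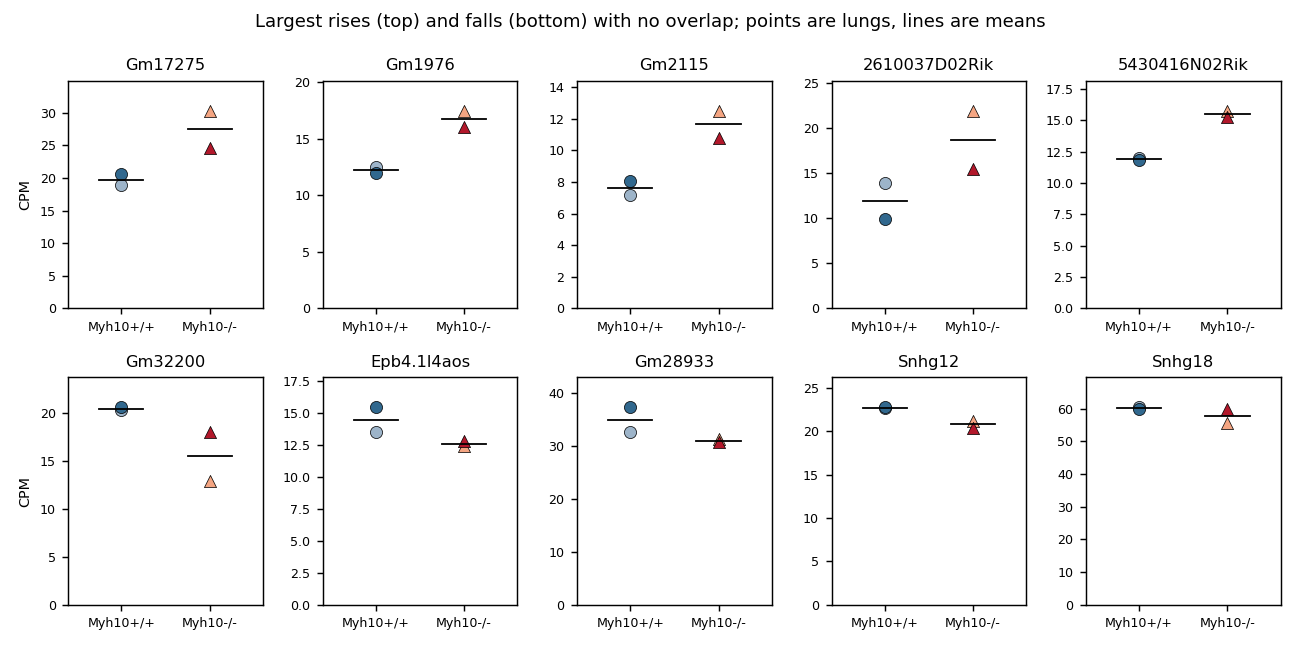
CPM in each lung (circles Myh10+/+, triangles Myh10-/-, pale for replicate 1 and dark for replicate 2) of the 5 largest increases and the 5 largest decreases among RNAs whose genotypes did not overlap. Lines are means of 2 lungs and each axis starts at 0. The increases are wider than the decreases, apart from Gm32200.

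snoRNA hosts carry guides for the chemical modification of ribosomal RNA inside their introns or exons. Of the 68, 6 held an annotated snoRNA or scaRNA, and edgeR and DESeq2 called none of these, with 1 at an unadjusted p under 0.05 (2900076A07Rik). Snhg18, which carries Snord123, was at 60.4 and 59.7 CPM in Myh10+/+ and 55.5 and 59.7 CPM in Myh10-/-. Snhg12 holds 5 snoRNA entries, with Snora16a listed more than once, in the single block formed by merging the exons of its transcripts. It was at 22.6 and 22.8 against 21.2 and 20.4 CPM, a small but clean gap (log2 fold change -0.13, SE 0.07, adjusted p = 0.411). Epb4.1l4aos was at 13.5 and 15.5 against 12.4 and 12.8 CPM, while Snhg6 (32.4 and 33.3 against 32.5 and 34.2 CPM) and Snhg20 (16.4 and 21.4 against 18.0 and 19.2 CPM) overlapped. The sixth, 2900076A07Rik, is counted only through a scaRNA entry named Mir1839, which overlaps the miRNA entry of the same name, and had 16.9 and 17.3 against 21.1 and 20.4 CPM (log2 fold change 0.28, SE 0.08, adjusted p = 0.0998). The median fold change of the 6 hosts was -0.04 on the log2 scale, below the 0.11 of the 68 RNAs. Of the 14 tested snoRNA hosts of a fixed list, typed in any way in the table, 1 was called higher and none lower. It was Snhg14, which is not among the 68, at 18.8 and 22.5 CPM in Myh10+/+ and 29.1 and 26.2 CPM in Myh10-/- (adjusted p = 0.0466). The 9 tested hosts of that list outside the 68 had a median of 0.08 on the log2 scale, with 7 above 0.

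Hosts of miRNAs numbered 6, none called by edgeR or DESeq2 and 3 higher at an unadjusted p under 0.05. Mir17hg, at chr14:115042879-115046727, is the primary transcript of the miR-17-92 cluster, which is known to sustain proliferation in lung epithelium. It was at 34.3 and 27.3 CPM in Myh10+/+ and 39.8 and 37.3 CPM in Myh10-/-. Both Myh10-/- lungs were higher, and the log2 fold change of 0.32 (SE 0.10) had an adjusted p of 0.133, which passed without the first Myh10+/+ lung (0.50, adjusted p = 0.00367) and without the second Myh10-/- lung (0.37, adjusted p = 0.00858). Without the second Myh10+/+ lung the value was 0.17 (adjusted p = 0.701), and without the first Myh10-/- lung 0.28 (adjusted p = 0.302). RefSeq lists 11 mature sequences for it, with 9 seeds. Of these, 6 are shown because some of them share a seed, the bases 2 to 8 printed in capitals. Mature miRNAs were not measured here.
miR-17-5p: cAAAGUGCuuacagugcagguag
miR-20a-5p: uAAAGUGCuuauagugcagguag
miR-18a-5p: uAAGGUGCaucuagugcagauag
miR-19a-3p: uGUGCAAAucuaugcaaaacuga
miR-19b-3p: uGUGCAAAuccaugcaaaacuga
miR-92a-3p: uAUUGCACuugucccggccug
Here miR-17-5p and miR-20a-5p share a seed, as do miR-19a-3p and miR-19b-3p, so these 6 arms carry 4 seeds.

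The host of a let-7 cluster, 6720427I07Rik at chr13:48532905-48546500, was at 23.7 and 22.0 CPM in Myh10+/+ and 27.1 and 26.2 CPM in Myh10-/-. Its lungs did not overlap (log2 fold change 0.22, SE 0.07, adjusted p = 0.164). The let-7 family restrains growth and marks maturing tissue. The 5p arms of the 3 members encoded here share 1 seed, whereas all 6 arms listed for this host carry 3 seeds.
let-7d-5p: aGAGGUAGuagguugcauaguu
let-7f-5p: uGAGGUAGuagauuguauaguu
let-7a-5p: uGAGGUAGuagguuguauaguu
2900076A07Rik counts as a host of miR-1839 through the locus named above. Among 8 tested miRNA hosts of the fixed list, 1 was called higher and none lower, and it was not one of the 68: Dleu2, host of miR-15a and miR-16-1, at 66.4 and 64.2 CPM in Myh10+/+ and 89.6 and 77.7 CPM in Myh10-/- (log2 fold change 0.36, adjusted p = 0.0406).

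The imprinted Dlk1-Dio3 cluster gave 2 of the 68, Meg3 and Mirg. Mirg, which holds 14 annotated miRNA genes, was at 35.4 and 41.1 CPM in Myh10+/+ and 37.2 and 33.4 CPM in Myh10-/- (log2 fold change -0.12, SE 0.09, adjusted p = 0.57). Rian, between them on the same strand, was at 650 and 661 against 684 and 623 CPM. The maternal noncoding RNAs of the cluster therefore all overlapped between genotypes, whereas the paternally expressed Dlk1 did not, at 660 and 654 against 588 and 566 CPM (log2 fold change -0.19, SE 0.07, adjusted p = 0.174), and DESeq2 called Dlk1 lower. Rtl1, also expressed from the paternal copy, averaged 110.5 reads and was higher without overlap only by a narrow margin. It was at 3.53 and 4.04 against 5.50 and 4.07 CPM (log2 fold change 0.33, SE 0.19, adjusted p = 0.42). Of a list of other imprinted noncoding RNAs, 6 were tested, none is among the 68, and 2 were called higher: Snhg14, given above, and Kcnq1ot1, at 73.3 and 82.0 against 114 and 93.3 CPM (log2 fold change 0.41, adjusted p = 0.0389).

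15 of the 68 began within 2000 bases of the start of a protein-coding gene on the opposite strand. edgeR and DESeq2 called none, and 2 were higher at an unadjusted p under 0.05. Without overlap, 8 of the 15 were higher (53.3%) and 1 was lower (6.67%), beside 45.6% and 7.35% of all 68 RNAs. Over all tested genes these shares were 23.9% and 24.3%. Fendrr, whose start lies 1276 bases from that of Foxf1, was at 280 and 295 CPM in Myh10+/+ and 309 and 280 CPM in Myh10-/- and overlapped (log2 fold change 0.03, SE 0.06, adjusted p = 0.823). Foxf1, a forkhead factor of lung mesenchyme and endothelium, was at 154 and 153 against 132 and 140 CPM (log2 fold change -0.18, SE 0.05, adjusted p = 0.107). The Foxf1 levels of the genotypes did not overlap and those of Fendrr did, but neither passed and the difference between their changes was not tested. Of 4 tested RNAs on the list of neighbours of developmental transcription factors, none was called by either tool, with unadjusted p-values of 0.418 or more in the edgeR fit.

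Other divergent pairs joined the lincRNAs to regulators of pattern. Crnde, 1505 bases from Irx5, was at 28.8 and 29.2 CPM in Myh10+/+ and 30.7 and 34.2 CPM in Myh10-/- (log2 fold change 0.16, SE 0.08), while Irx5 had a log2 fold change of -0.08. RP24-150D8.2, 748 bases from Tbx5, was at 18.9 CPM or just above in both Myh10+/+ lungs and at 20.6 and 19.8 CPM in Myh10-/-, and Tbx5 had a log2 fold change of 0.17 (adjusted p = 0.147). Gm20554, 256 bases from Irx2, was at 10.8 and 8.56 against 12.4 and 10.1 CPM. 9030622O22Rik, which lies 2674 bases from Foxa2 on the same strand, was at 10.9 and 12.1 against 14.8 and 14.3 CPM (log2 fold change 0.34, SE 0.10, adjusted p = 0.102), whereas Foxa2, a factor of endoderm, had a log2 fold change of -0.17 (adjusted p = 0.272).

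Over 64 pairs of a lincRNA with its nearest protein-coding gene, the fold changes had the same sign in 38. The genes next to them numbered 61, since some lincRNAs share one, and 1 was called: Cp, which encodes the copper protein ceruloplasmin and lies 58070 bases from 4632415L05Rik, was lower with a log2 fold change of -0.41 (SE 0.08, adjusted p = 0.0288). 4632415L05Rik itself was at 40.0 and 39.4 CPM against 41.2 and 40.7 CPM. Pearson's r between the fold changes was 0.20 and Spearman's rho 0.31 over the 64 pairs, and 0.50 and 0.56 over the 15 divergent pairs. These describe values that share the same 4 libraries, and in some pairs reads of overlapping transcripts. The median fold change of the neighbours was 0.01 on the log2 scale, against 0.10 for the 64 lincRNAs.

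**Figure D4:**
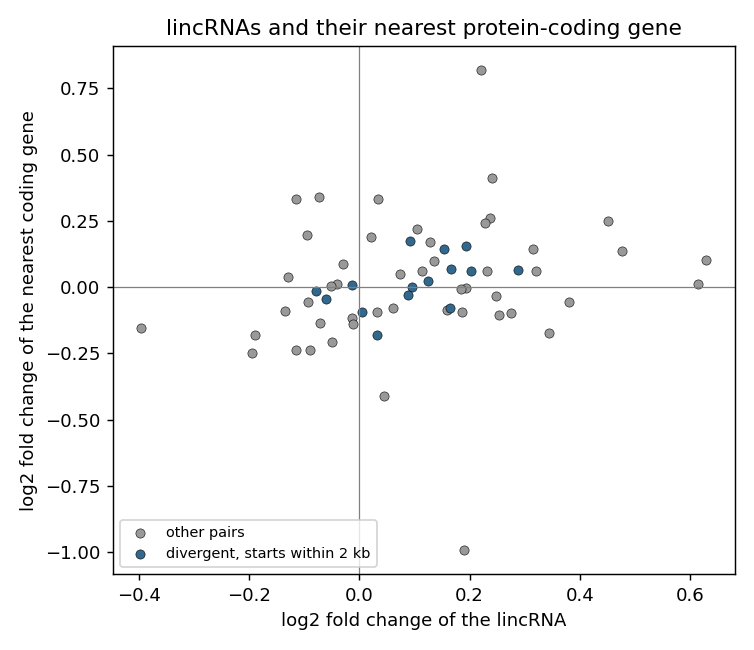
Log2 fold change (Myh10-/- over Myh10+/+) of 64 lincRNAs against that of the nearest protein-coding gene, blue where the pair starts within 2 kb on opposite strands. Values of the 15 divergent pairs stay within 0.3 of 0, with 43 of 64 lincRNAs right of 0 and 31 of 61 distinct genes above it.

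Several of the most counted rows are not simple lincRNAs. Yam1 and Gm26917 lie together near chr17:39843013-39848788 in a ribosomal RNA repeat, and RefSeq calls the first a pseudogene of 18S RNA (Rn18s-rs5). Yam1 was at 95.7 and 139 CPM in Myh10+/+ and 106 and 114 CPM in Myh10-/-, so its Myh10+/+ lungs were the extremes, and its log2 fold change of -0.09 became -0.34 (adjusted p = 0.0477) without the first of them and 0.20 without the second. Gm26917 lay between 17.2 and 21.3 CPM with overlap. Gm4790, 6230415J03Rik and Gm37494 are now 1 RefSeq gene, Gm33989, typed protein-coding at chr7:39544430-39580590. Summed, they stood at 123 and 120 CPM in Myh10+/+ and 141 and 129 CPM in Myh10-/-, while Gm4790 alone, at 67.8 and 65.1 against 76.9 and 67.7 CPM, overlapped. D930016D06Rik, now Thoc2l and typed protein-coding by RefSeq, was at 52.6 and 52.9 against 62.4 and 61.9 CPM, with a log2 fold change of 0.24 (SE 0.07, adjusted p = 0.115). Gm21781, a single-exon RNA at chr10:4391587-4396424, was at 57.6 and 62.4 against 75.4 and 67.1 CPM (log2 fold change 0.25, SE 0.08, adjusted p = 0.141), and passed without the second Myh10-/- lung (0.33, adjusted p = 0.00912) but not without the first (0.17, adjusted p = 0.37) or without the first Myh10+/+ lung (0.19, adjusted p = 0.462).

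The annotation of the set has moved since the table was made. Of the 64 RNAs found in GENCODE M21, 50 are still lincRNA, 5 are processed transcripts, 3 protein-coding, 3 antisense, 2 bidirectional promoter RNAs and 1 sense intronic. Exons of 30 overlap those of another gene, on the opposite strand in 23. Exon lengths ran from 430 to 20771 bases with a median of 3432.5, against 4891 for protein-coding genes counted as deeply, and 14 had 1 exon block. The median GC content of the longest transcript was 47.3%, against 49.6% for protein-coding genes.

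Across the 68, 46 fold changes were above 0 and 22 below, and the median was 0.11 on the log2 scale. Among all 10979 genes that reached the same 250 reads, 47.7% were above 0 and the median was -0.01. Other noncoding types of that depth in the table lay on the same side. The medians were 0.11 for 36 antisense RNAs, 0.16 for 54 processed transcripts, 0.21 for 21 TEC rows (transcripts still to be experimentally checked) and 0.15 for 17 processed pseudogenes. In that order, 80.6%, 79.6%, 85.7% and 76.5% were above 0. Higher in both Myh10-/- lungs without overlap were 33.3%, 53.7%, 42.9% and 52.9%, beside 45.6% of the 68 RNAs. The less counted lincRNAs, 661 on chromosomes other than X and Y, had a median of 0.15 with 65.4% above 0 and none called in either direction by edgeR against 1 called higher by DESeq2, while 43 were higher and 9 lower at an unadjusted p under 0.05.

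**Figure D5:**
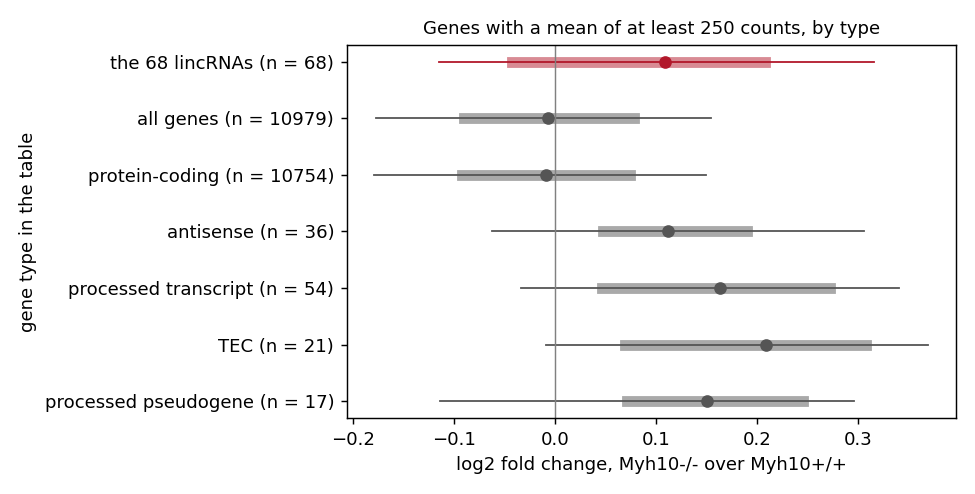
Log2 fold change (Myh10-/- over Myh10+/+) by gene type for genes with a mean of at least 250 reads, as medians (points), quartiles (thick bars) and the central 80% (thin lines). The median of the 68 lincRNAs is 0.11, beside -0.01 for protein-coding genes and 0.11 to 0.21 for the other noncoding types.

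The lungs did not contribute evenly. The highest CPM was in the first Myh10-/- lung for 38 of the 68 RNAs (55.9%), in the second Myh10-/- lung for 9, and in the Myh10+/+ lungs for 6 and 15. Over all tested genes the first Myh10-/- lung was highest for 31.0%. Among the other types with at least 250 reads, it was highest for 61.1% of antisense RNAs and 63.0% of processed transcripts. For TEC rows and processed pseudogenes of that depth, the first Myh10-/- lung was highest in 66.7% and 35.3%. Without that lung the median fold change was 0.07 with 48 of 68 above 0, and 1 RNA was called. Without the second Myh10-/- lung the median was 0.12 with 46 of 68 above 0, and without the second Myh10+/+ lung it was 0.11 with 50 above 0. Without the first Myh10+/+ lung 4 were called, 3 higher and 1 lower, and 0 of the 3 RNAs of the full fit was among them. Also, 13 of the 68 had fewer than 250 reads on average in Myh10+/+ and none in Myh10-/-, whose libraries were deeper. In the other 55, 36 fold changes were above 0, the median was 0.10, 26 were higher without overlap and 5 lower, beside the same 23.9% and 24.3% of all tested genes. Pearson's r between the fold change and GC content was -0.35, and Spearman's rho -0.37, over 64 RNAs that share the same 4 libraries. Among the 50 RNAs still typed lincRNA in GENCODE M21 the median was 0.10 and 1 was called (Gm17275), and among the 34 with no exon overlap it was 0.09 and none was called by edgeR or DESeq2, with 8 at an unadjusted p under 0.05, 7 of them higher.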

How the data were processed

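Libraries were made with a stranded poly(A) kit and read as 75-base single ends. Per the labels and the study's methods, the authors trimmed reads, aligned them to mm10 with STAR 2.4.0a, and counted them per gene with featureCounts 1.5.1, leaving out reads that mapped to several places or genes. The deposited values are raw counts per gene, 4 columns, with gene types but no coordinates. Positions, exon overlaps and neighbours were taken from GENCODE M21 (GRCm38) in place of the table, and names, promoter windows and miRNAs from RefSeq (GRCm38.p6). 64 of 68 RNAs matched GENCODE and 54 RefSeq. The chromosome of Gm28933 could not be checked.

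Genes with a mean of at least 5 reads were tested with edgeR 4.0.16 (TMM, quasi-likelihood, genotype only, R 4.3.3), with Benjamini-Hochberg adjustment over all 18763 genes. Fold changes are Myh10-/- over Myh10+/+, SE is the fold change divided by the root of F, and CPM uses TMM factors. The fit was tested on simulated data. Counting error is about 6.32% at 250 reads. Lungs of a genotype were not duplicates: chi-square over its degrees of freedom was 5.59 for Myh10+/+ and 9.27 for Myh10-/-. These values cover all genes with reads, chromosomes X and Y included. Each genotype held 1 lung of each sex pattern, so they include that difference, and values without X and Y were not computed. DESeq2 1.42.0, other scalings and filters, a replicate block, thinning and leaving out each lung were alternatives. Named RNAs were those called, the 5 largest increases and decreases without overlap, the 10 most counted, those at the count limit, and those on fixed lists, with their neighbours. A few more divergent or miRNA-hosting RNAs were named after their values were seen. Members and lists were chosen with earlier results of these data known. A mean of 2 lungs carries an SD from 2 values only.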

Additional observations from a re-analysis of the deposited data

How the results depend on the processing

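308 genes in all, 3 of them among the 68 RNAs, were called. The count among the RNAs was 10 with no filter on low counts (1162 genes), 6 at an adjusted p under 0.1 (696 genes), 1 with a limit of 500 reads for the choice of RNAs, 1 among those still typed lincRNA and 0 among those without exon overlap, both chosen after seeing the data. It was 0 when all genes tested had a mean of at least 250 reads, with adjusted p-values from 0.0505 to 0.0656 for the 3 RNAs, and 0 (114 genes) in counts thinned to the smallest total, with 0.0523 to 0.0942. In these 2 edgeR fits 18 and 19 RNAs were higher and 2 and 3 lower at an unadjusted p under 0.05. Robust dispersions gave 474 genes. The limit of 250 reads on counts scaled to the smallest total left 54 RNAs and 2 calls, without Gm2115.

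The replicate numbers named no shared litter, and deviations of same-numbered lungs correlated at -0.214 over all genes, -0.019 without chromosomes X, Y and MT, and 0.103 over the 68 RNAs. A replicate block gave 7 RNAs (5 higher, 2 lower) and 710 genes. Crossed numbers, tried after seeing the data, gave 4 and 415.

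Leaving out each lung in turn gave 1 to 17 RNAs and 191 to 1826 genes, the most without the second Myh10-/- lung and the fewest RNAs without the first. Signs near 0 turned: the ranges of log2 fold change were -0.061 to 0.35 for Malat1, -0.011 to 0.082 for Meg3, -0.036 to 0.10 for Fendrr, -0.34 to 0.20 for Yam1, -0.14 to 0.25 for Gm26724, -0.034 to 0.18 for C920006O11Rik, -0.014 to 0.059 for Snhg6 and -0.20 to 0.19 for Snhg20. Thinning gave -0.071 for C920006O11Rik, -0.0077 for Snhg6 and 0.0050 for Snhg20, and library totals 0.0081 for Snhg20. Over the other settings, the fold changes of 26 named RNAs kept their sign and side of the threshold 263 times, passed it 12 times and dropped below it 7 times. The causes were not tested. Other scalings, filterByExpr, DESeq2 and leaving out chromosomes X, Y and MT kept the RNA count within 1.5 times. The difference in the share of reads kept its sign under the 6 alternatives tried.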
